A study of Mus musculus with 12 samples.

Results

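The 10 genes described here encode the acid secretion machinery of the osteoclast, the cell that dissolves bone: Tcirg1, Atp6v0d2, Atp6v1c1 and Atp6ap1 of the proton pump, Clcn7 and Ostm1 of the chloride exchanger, Car2 and Slc4a2 of the proton and bicarbonate supply, and Plekhm1 and Snx10 of ruffled border traffic. The rule that picks them uses their symbols, but the 10 genes were chosen with earlier results of these data known. Counts of these genes called are therefore a description. Each matched 1 of the 23358 entries of the deposited count table, and all 10 were among the 16190 genes that passed a filter on low counts. RNA sequencing was done on mouse frontal bone taken at postnatal day 3 together with the nasal bone and the adjoining sutures. The design crossed 2 strain backgrounds with 2 genotypes, wild type and FGFR2-C342Y/+, a heterozygous mutation that models Crouzon syndrome, a disorder of premature suture closure. The 4 groups were C57BL/6 wild type (replicates 1 to 3), C57BL/6 mutant (4 to 6), BALB/c wild type (13 to 15) and BALB/c mutant (16 to 18), with 3 samples each. All 12 samples were digested with collagenase and trypsin before RNA was extracted, so cells of several types entered each library. The labels give no sex and do not say that samples came from separate animals, so p-values measure only the spread between these samples. All C57BL/6 libraries carry 1 flow cell name in the labels and all BALB/c libraries another, so strain and sequencing run cannot be told apart.

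An osteoclast seals itself to bone and inserts lysosome-like vesicles into the facing membrane, which becomes the ruffled border. There the vacuolar proton pump (V-ATPase) drives acid into the resorption space, a chloride and proton exchanger balances the charge, and carbonic anhydrase supplies protons inside the cell while an anion exchanger removes the bicarbonate left behind. Loss of several of these genes, among them Tcirg1, Clcn7, Ostm1, Car2, Plekhm1 and Snx10, is known to cause osteopetrosis in people, a disease of dense bone that is not resorbed. Most of the genes also serve other cells: the pump acidifies lysosomes everywhere, and Car2 is abundant in red blood cells and their precursors.

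Promoter sequence was at hand for 7 of the 10 genes (RefSeq, GRCm38.p6), with 13 annotated starts among them. Car2, Atp6v0d2 and Atp6v1c1 had no entry. The 250 bases before the first start are shown for 4 of the 7 as examples: Clcn7 and Ostm1 (the exchanger pair), the pump subunit Tcirg1, and Snx10. These 4 windows differ in the short motifs searched, Ostm1 holding none. All 7 genes rose in C57BL/6 mutants, so a rise does not set these 4 apart. Sequences run 5′ to 3′ on the gene's own strand: Clcn7 at chr17:25133141-25133390 (plus), Ostm1 at chr10:42678666-42678915 (plus), Tcirg1 at chr19:3907134-3907383 (minus) and Snx10 at chr6:51523653-51523902 (plus). Capitals mark matches to the motifs searched, on either strand.
Clcn7: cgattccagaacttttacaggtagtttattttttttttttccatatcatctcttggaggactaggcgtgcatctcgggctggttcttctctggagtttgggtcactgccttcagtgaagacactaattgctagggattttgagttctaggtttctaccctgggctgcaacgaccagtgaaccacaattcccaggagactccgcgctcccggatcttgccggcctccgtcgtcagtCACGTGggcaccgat
Ostm1: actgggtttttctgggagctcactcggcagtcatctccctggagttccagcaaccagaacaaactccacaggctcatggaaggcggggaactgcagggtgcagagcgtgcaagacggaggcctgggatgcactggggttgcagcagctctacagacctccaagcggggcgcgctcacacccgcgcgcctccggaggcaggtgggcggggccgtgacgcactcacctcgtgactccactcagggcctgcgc
Tcirg1: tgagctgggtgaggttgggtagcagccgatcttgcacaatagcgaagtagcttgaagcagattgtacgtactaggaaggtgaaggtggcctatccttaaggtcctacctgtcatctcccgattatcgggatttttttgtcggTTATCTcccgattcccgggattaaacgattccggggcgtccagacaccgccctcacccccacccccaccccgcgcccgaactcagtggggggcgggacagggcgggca
Snx10: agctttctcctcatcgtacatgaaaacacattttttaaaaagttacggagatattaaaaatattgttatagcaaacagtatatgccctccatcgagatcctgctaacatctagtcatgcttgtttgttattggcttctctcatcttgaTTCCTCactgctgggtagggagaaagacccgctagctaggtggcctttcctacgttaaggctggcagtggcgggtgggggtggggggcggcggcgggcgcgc
In Clcn7 the capitals are an E-box, CACGTG, whose first base lies 15 bases before the start. This hexamer is the core of the sites bound by Mitf and Tfeb, which are regulators of lysosomal genes. It was found in 6.02% of 32851 promoter windows of the same length and in 1 of the 13 windows of the 7 genes. In Tcirg1 they are the GATA motif AGATAA, read on the opposite strand and found in 9.99% of all windows and in 1 of the 13. In Snx10 they are an ETS motif of the PU.1 type, GAGGAA, also on the opposite strand. That motif was in 23.3% of all windows and in 3 of the 13, before a later Tcirg1 start and before the first starts of Snx10 and Slc4a2. An AP-1 motif, TGANTCA, was in 6.75% of all windows and in 1 of the 13, before a later Snx10 start. A TATA box, searched as TATAAA, was in 12.4% of all windows and in 0 of the 13. No marked match overlapped another, and a match describes letters only.

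Depth was ample for all 10 genes. Total gene counts ran from 27181658 to 46521546 per library, and the lowest count of any of the 10 genes in any library was 868, for Ostm1. Correlations of log2 CPM between replicates of a group ran from 0.958 to 0.991. Levels are given as CPM, the usual depth-scaled counts, with library sizes adjusted by TMM. Differences are log2 fold changes from edgeR's quasi-likelihood test, called at an adjusted p under 0.05 over all 16190 genes. Some libraries differed in ways that touch the comparisons. Osteoblast markers were abundant in every library, most of their sum being Col1a1 (mean 89220 CPM in C57BL/6 wild type). They summed to 62230 CPM in C57BL/6 wild type replicate 1 and to 99530 to 142400 CPM elsewhere. Markers of ciliated and olfactory epithelium, which lines the adjoining nasal cavity, summed to 137.3 to 276.7 CPM in C57BL/6 wild type, highest in replicate 1. They summed to 94.98 CPM in C57BL/6 mutant replicate 4 and to 11.83 and 14.12 CPM in the other 2 mutants. In BALB/c they summed to at most 17.2 CPM. Skeletal muscle markers summed to 398.1 CPM in BALB/c mutant replicate 16, to 70.88 CPM in C57BL/6 wild type replicate 2 and to at most 24.84 CPM elsewhere. Y-linked transcripts summed to 152.3 to 161.3 CPM in the 3 C57BL/6 wild type libraries and to 145.3 to 185.2 CPM in 1 library of each other group (in C57BL/6 mutants, replicate 6), and to at most 1.36 CPM in the remaining 6.

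In C57BL/6, 9 of the 10 genes rose in the mutants and Car2 fell. The rises ran from 1.41-fold for Atp6ap1 to 1.86-fold for Atp6v0d2, while Car2 fell to 0.565 of its wild type level. Over all genes, 11.3% were called higher and 12.6% lower in this comparison. The groups' CPM ranges did not overlap for any of the 10, against 19.7% of all genes with higher and 21.9% with lower ranges that did not overlap. The median log2 fold change was 0.60 over the 10 genes and -0.00395 over all genes tested. The plot of every sample's level shows the 3 C57BL/6 mutant points above all 3 wild type points in each panel but that of Car2.

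**Figure D1:**
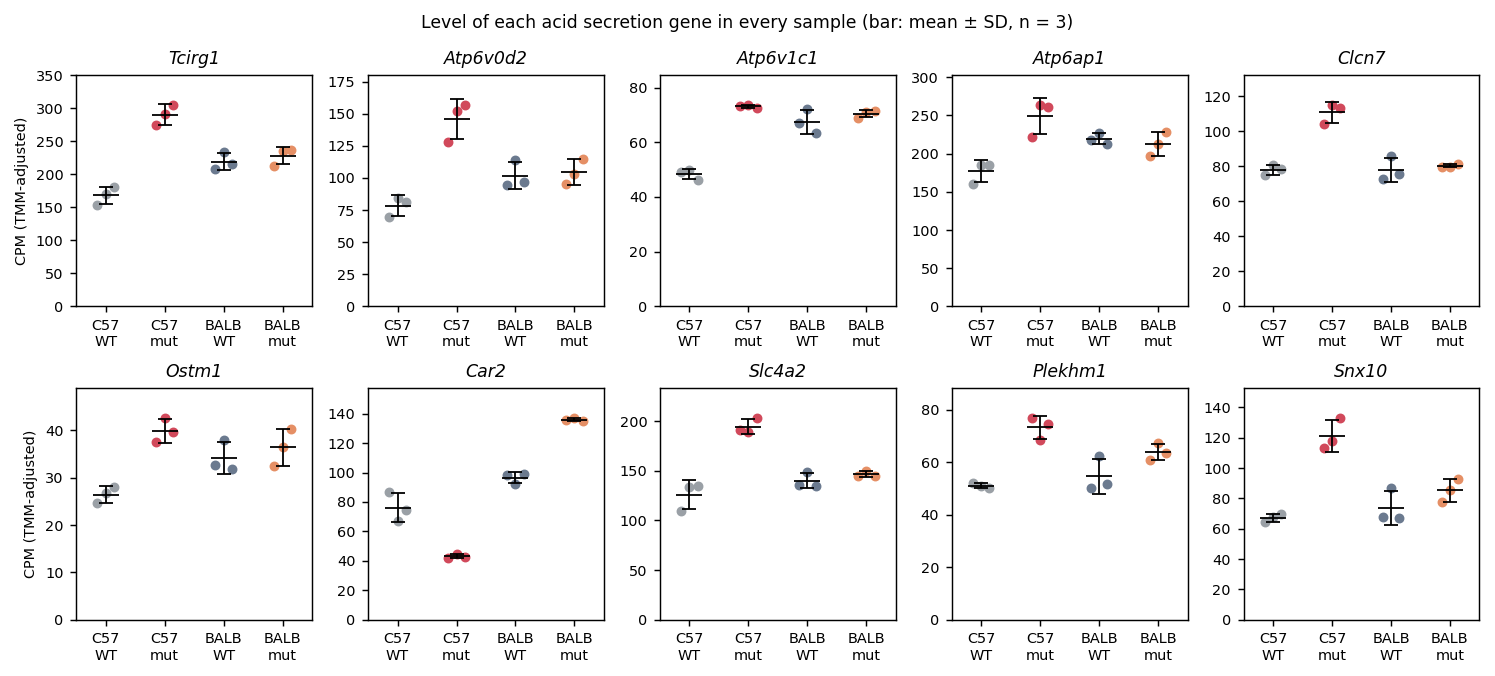
Level of each of the 10 genes in every sample, in TMM-adjusted CPM on a linear axis from 0 (points: samples; horizontal bar and whiskers: mean ± SD, n = 3). C57 and BALB stand for C57BL/6 and BALB/c, WT for wild type and mut for mutant; C57BL/6 mutants stand apart from C57BL/6 wild type in all 10 panels, above it in 9 and below it for Car2.

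Tcirg1 (chromosome 19, 3896050 to 3907133, mm10) encodes the a3 subunit of the membrane sector, the form of the pump sent to the ruffled border. Its level was 154, 170 and 180 CPM in C57BL/6 wild type replicates 1 to 3 and 274, 291 and 305 CPM in mutant replicates 4 to 6. The lowest mutant thus lay well above the highest wild type sample. The log2 fold change was 0.79 (SE 0.0753, edgeR adjusted p 1.39e-04). Atp6v0d2 (chromosome 4, 19876838 to 19922566) encodes the d2 subunit, which is enriched in osteoclasts and also takes part in their fusion. It measured 69.5, 84.6 and 81.3 CPM in wild type and 128, 152 and 157 CPM in mutants. Its log2 fold change of 0.89 (SE 0.108, edgeR adjusted p 4.48e-04) was the largest of the 10. Atp6v1c1 (chromosome 15, 38661904 to 38692444) encodes the C1 subunit of the cytosolic sector. Its levels were tight within groups, 49, 49.7 and 46.2 CPM in wild type and 73.2, 73.7 and 72.4 CPM in mutants, a log2 rise of 0.60 (SE 0.0536). Atp6ap1 (chromosome X, 74297097 to 74304721) encodes an accessory protein needed for pump assembly. It rose from 160, 185 and 185 CPM to 222, 264 and 261 CPM, a log2 change of 0.49 (SE 0.0853). Atp6ap1 is X-linked, and mutant replicate 6, the mutant library with Y-linked transcripts, had 261 CPM and lay between the other 2 mutants. The part of sex in its rise was not tested. The other 9 genes are autosomal.

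Clcn7 (chromosome 17, 25133394 to 25162099) encodes the chloride and proton exchanger, and Ostm1 (chromosome 10, 42678916 to 42702462) the subunit that stabilises it. Clcn7 measured 75, 80.5 and 78.2 CPM in C57BL/6 wild type and 104, 115 and 113 CPM in mutants. Ostm1 was lower throughout, with 24.6, 26.7 and 28 CPM in wild type and 37.5, 42.6 and 39.6 CPM in mutants. Both partners therefore rose with no overlap, Clcn7 by 0.50 (SE 0.0642) and Ostm1 by 0.59 (SE 0.0931) on the log2 scale. Slc4a2 (chromosome 5, 24425232 to 24440947), the anion exchanger of the opposite membrane, rose from 109, 134 and 135 CPM to 191, 189 and 203 CPM, a log2 change of 0.62 (SE 0.079). Of its 50-base transcript words, 12.1% also occur in transcripts of other genes such as Fastk, so part of its count could be shared; the figure was at most 5.05% for the other 9 genes. Plekhm1 (chromosome 11, 103365092 to 103412664), a Rab7 effector in lysosome fusion, rose from 52.2, 50.8 and 50.2 CPM to 76.8, 68.3 and 74.7 CPM. Snx10 (chromosome 6, 51523903 to 51590670), a sorting nexin of endosomes, rose from 64.3, 67.5 and 69.9 CPM to 113, 118 and 133 CPM. The log2 changes were 0.52 (SE 0.0792) for Plekhm1 and 0.85 (SE 0.102) for Snx10, so Snx10 lay with Tcirg1 and Atp6v0d2 at the upper end.

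Car2 (chromosome 3, 14886426 to 14900770), the cytosolic carbonic anhydrase, moved the other way. It measured 86.8, 67.3 and 74.4 CPM in C57BL/6 wild type and 41.9, 44.5 and 42.8 CPM in mutants. The highest mutant lay below the lowest wild type sample, and the log2 change was -0.82 (SE 0.0773, edgeR adjusted p 1.28e-04). All 10 genes were called in each of 13 alternative fits, including the fit without replicate 4. Replicate 6 alone, which matches the wild type libraries in Y-linked transcripts, was above all 3 wild type samples for the 9 genes and below all 3 for Car2. Mutant replicates 4 and 5 had at most 1.36 CPM of these transcripts, so sex partly coincides with genotype in C57BL/6. The part of sex in these changes was not tested. Scaling by total counts moved the median of all genes to -0.201 and the calls from 1835 higher and 2032 lower to 616 higher and 4064 lower. On that scaling the 9 genes still rose, by 0.299 (Atp6ap1) to 0.701 (Atp6v0d2), and Car2 changed by -1.03.

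The rest of the pump moved less evenly. There were 21 other V-ATPase genes, of which 20 were tested. In C57BL/6 mutants 11 of them rose, 2 fell and 7 were not called, with a median log2 fold change of 0.284. With total-count scaling 7 rose and 3 fell (median 0.0879), and without mutant replicate 4 the counts were 11 and 6. Over all genes the calls were 616 higher and 4064 lower with total-count scaling, and 2112 higher and 2721 lower without that replicate. The largest rises were in Atp6v1b2 (0.74, SE 0.0892), the B2 subunit, Atp6v0b (0.63, SE 0.0612), part of the proton-carrying ring, and Atp6v1a (0.62, SE 0.0853), the catalytic A subunit. Atp6v1b2 went from 179.6 to 299.9 CPM (means, n = 3). The 2 that fell were Atp6v0e2 (-1.38, SE 0.303) and the ring subunit Atp6v0c (-0.49, SE 0.128), both under 10 CPM in C57BL/6. Of 15 other carbonic anhydrases, CLC exchangers and anion exchangers tested, 1 rose (Car3, 0.74, SE 0.169), 2 fell and 12 were not called, with a median of -0.111. The 2 that fell were the endosomal exchanger Clcn3 (-0.55, SE 0.0943) and Slc4a1, the anion exchanger of red cells (-2.08, SE 0.237), which is also 1 of the erythroid markers below. Of 11 genes of lysosomes and ruffled border traffic, 0 rose and 3 fell with total-count scaling, on which most calls over all genes were lower. With TMM scaling 4 rose and 1 fell, beside 11.3% of all genes called higher and 12.6% lower. Those that rose were Rab7 (0.28, SE 0.0634), the small GTPase that Plekhm1 binds, the dynein regulator Ndel1 (0.28, SE 0.0769), the lysosomal membrane protein Lamp2 (0.32, SE 0.0644) and the transcription factor Mitf (0.38, SE 0.119), and the 1 that fell was the vesicle fusion sensor Syt7 (-2.12, SE 0.525). Syt7 varied widely, at 24.5 ± 11.9 CPM in wild type and 5.63 ± 5.18 CPM in mutants (SD, n = 3 each).

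Markers of whole cell types moved with the 10 genes. All 11 osteoclast markers rose in C57BL/6 mutants, with a median log2 fold change of 0.933, among them the protease Ctsk (0.98, SE 0.101) and the phosphatase Acp5 (0.96, SE 0.0999). Their summed level was 3730 to 4531 CPM in wild type and 7738 to 8620 CPM in mutants, and none was at 0. Of 9 osteoblast markers 7 rose, with a median of 0.623. Of 10 macrophage markers 2 rose, Csf1r (0.76, SE 0.102) and Cd68 (0.93, SE 0.0999), both also expressed in osteoclasts. Erythroid markers went the way of Car2: of 15 tested, 10 fell and 0 rose (12 and 0 at an unadjusted p under 0.05, and 10 and 0 with DESeq2), with a median of -1.81. Their summed level was 235.6 to 311.8 CPM in C57BL/6 wild type and 63.62 to 97.63 CPM in mutants. Hbb-b1 was at 0 in wild type replicate 3 and in mutant replicates 4 and 6. The globin genes Hba-a1, Hba-a2, Hbb-b1 and Hbb-b2 were not called. Their C57BL/6 wild type means were 0.037 to 1.91 CPM, against 138.7 CPM for Slc4a1, and Hbb-bs and Hbb-bt had no entry. Why the globin counts were this low was not tested. Of 7 neutrophil markers 4 fell (6 at an unadjusted p under 0.05, with limma-voom and with total counts), with a median of -0.743. Of the 8 ciliated and olfactory markers, 5 also fell, with a median of -2.36, and without mutant replicate 4 all 8 fell (median -3.95), as they did with limma-voom on all samples. In these bulk samples fewer cells of a type and less RNA per cell cannot be told apart, and the part of any of these cell types in the changes of the 10 genes was not tested.

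**Figure D2:**
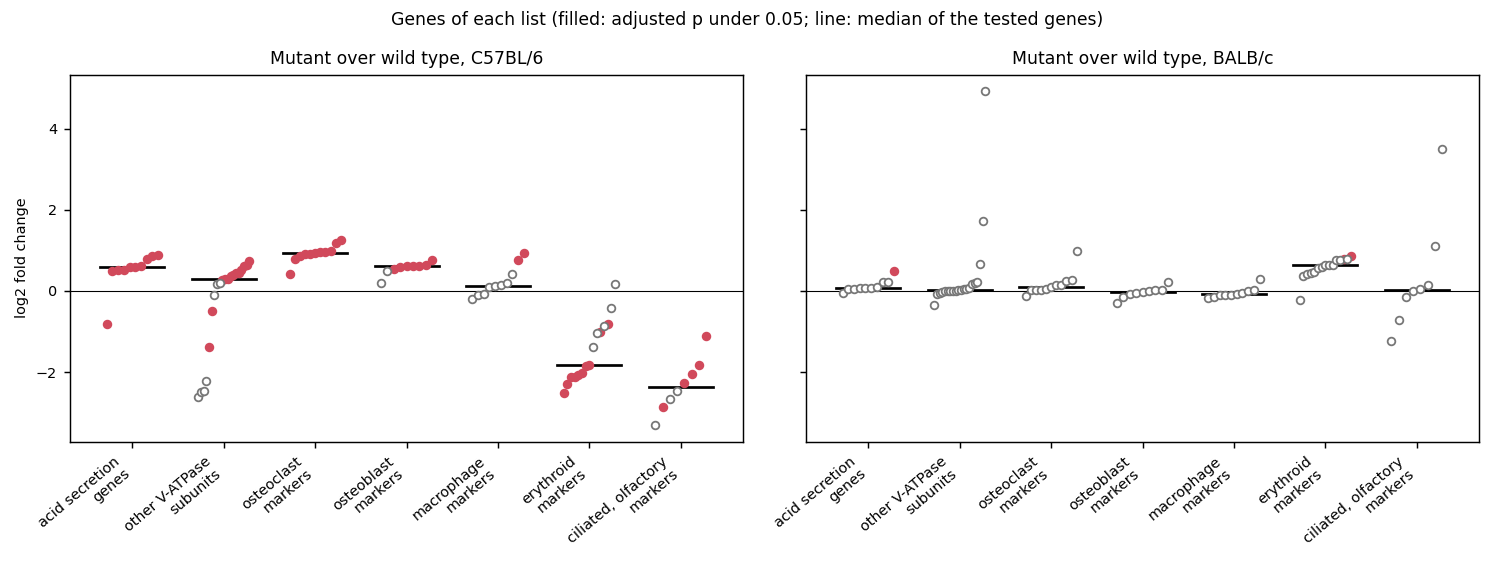
Log2 fold change, mutant over wild type, of each tested gene in 7 gene lists, in C57BL/6 (left) and BALB/c (right); filled points have an adjusted p under 0.05 and lines mark list medians. In C57BL/6 the acid secretion genes and osteoclast markers lie above 0, with Car2 the 1 acid secretion gene below, and the erythroid markers have a median of -1.81; in BALB/c most points are open, and the erythroid median is 0.631.

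In BALB/c, Car2 was the only 1 of the 10 genes called, and it rose. Its level was 98.3, 92.1 and 99 CPM in wild type replicates 13 to 15 and 136, 137 and 135 CPM in mutant replicates 16 to 18, so the groups were tight and did not overlap. The log2 fold change was 0.50 (SE 0.0761, edgeR adjusted p 0.0398). Over all genes, 0.0926% were called higher and 0.0432% lower, 22 genes in total, with 1901 at an unadjusted p under 0.05. The Car2 call did not hold in every fit: its adjusted p was 0.0958 with total-count scaling (log2 0.53), and it was lost when any 1 BALB/c library other than wild type replicate 14 was left out, with adjusted p up to 0.197. The change itself stayed between 0.47 and 0.53 in all 13 alternatives. Erythroid markers lay higher in the same mutants, with a summed level of 292.9 to 398.1 CPM in wild type and 530.6 to 631.5 CPM in mutants and a median log2 fold change of 0.631. Of these 15 markers 2 were called, the red cell membrane genes Rhd (0.86, SE 0.130) and Ermap (0.78, SE 0.118). The count was 9 at an unadjusted p under 0.05, 6 with DESeq2, 3 with limma-voom and 0 with total-count scaling. All 6 skeletal muscle markers were higher at an unadjusted p under 0.05 and 0 were called in edgeR (1 with DESeq2), with replicate 16 far above the rest; Car2 had a log2 change of 0.50 without that library (adjusted p 0.0743). The part of these markers in the Car2 result was not tested.

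The other 9 genes were not called in BALB/c, and their CPM ranges overlapped between genotypes. The share of all genes with ranges that did not overlap was taken for C57BL/6 only, so this count has no background. Tcirg1 measured 208, 233 and 215 CPM in wild type and 213, 235 and 236 CPM in mutants, a log2 difference of 0.06 (95% interval -0.10 to 0.22). Atp6v0d2 measured 94.7, 114 and 96.6 CPM in wild type and 95, 103 and 115 CPM in mutants, a difference of 0.04 (95% interval -0.20 to 0.27). For both genes the upper end of the interval lay below the change seen in C57BL/6. Clcn7 had 72.6, 85.7 and 75.4 CPM in wild type and 79.7, 79.6 and 81.4 CPM in mutants. Ostm1 had 32.6, 38 and 31.9 CPM in wild type and 32.5, 36.5 and 40.3 CPM in mutants. Neither partner of the exchanger thus separated the genotypes. The values of Slc4a2 were 136, 149 and 135 CPM in wild type and 145, 150 and 145 CPM in mutants. Atp6v1c1 was at 67, 72 and 63.2 CPM in wild type and 69, 71 and 71.5 CPM in mutants, and Atp6ap1 at 218, 227 and 213 CPM and at 197, 212 and 229 CPM. The traffic genes had the largest uncalled differences. Plekhm1 had 50.1, 62.3 and 51.6 CPM in wild type and 61, 67.2 and 63.6 CPM in mutants, a log2 difference of 0.23 (95% interval 0.05 to 0.40, edgeR adjusted p 0.292). Snx10 had 67.8, 86.6 and 66.8 CPM in wild type and 77.5, 85.6 and 93 CPM in mutants, a log2 difference of 0.21 (95% interval -0.01 to 0.43, edgeR adjusted p 0.457). In both, wild type replicate 14 was high and reached into the mutants' range. Without it the difference was 0.35 for Snx10 and 0.338 for Plekhm1, and neither was called. In BALB/c 0 of the 20 other V-ATPase genes and 0 of the 11 osteoclast markers were called by edgeR or by DESeq2 (2 and 1 at an unadjusted p under 0.05 in edgeR), and the osteoclast marker sums overlapped (4434 to 5279 CPM in wild type, 4630 to 5301 CPM in mutants). The median log2 difference was 0.067 over the 10 genes and 0 over all genes.

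The difference between the strains in the genotype effect was tested directly, as an interaction (the effect in BALB/c minus that in C57BL/6, from the same 12 samples). It was called for 9 of the 10 genes, below 0 for 8 and above 0 for Car2, beside 4.58% of all genes below and 5.46% above. The plot of genotype effects sets the values for the strains side by side. The interaction was -0.86 (SE 0.153) for Atp6v0d2, -0.73 (SE 0.106) for Tcirg1, -0.64 (SE 0.144) for Snx10 and -0.55 (SE 0.111) for Slc4a2. It was -0.54 (SE 0.120) for Atp6ap1, -0.53 (SE 0.0756) for Atp6v1c1, -0.50 (SE 0.131) for Ostm1 and -0.46 (SE 0.0909) for Clcn7. Plekhm1, at -0.29 (SE 0.112, edgeR adjusted p 0.109), was the gene not called. For Car2 the interaction was 1.32 (SE 0.109, edgeR adjusted p 1.09e-04), made of a fall in one strain and a rise in the other. The median was -0.535 over the 10 genes and 0.00739 over all genes. With total-count scaling, which moved the median of all genes to 0.238 and that of the 10 genes to -0.306, 5 genes kept an adjusted p under 0.05 (Car2, Tcirg1, Atp6v0d2, Slc4a2 and Atp6ap1). On that scaling the 8 genes below 0 had values from -0.631 (Atp6v0d2) to -0.232 (Clcn7), Plekhm1 had -0.0637 and Car2 1.56. Leaving out 1 library left 6 to 9 genes called, with 6 without C57BL/6 mutant replicate 6, without BALB/c mutant replicate 16 and without BALB/c mutant replicate 17. Of 20 other V-ATPase genes, 9 were called with an interaction below 0 and 1 above, against 3 and 1 with total-count scaling and 11 and 4 without C57BL/6 mutant replicate 4. Calls below 0 were also made for 8 of 11 osteoclast markers and 3 of 11 traffic genes (6 and 0 with total-count scaling), and for 4 of 9 osteoblast markers (7 with DESeq2, 2 with total-count scaling). Calls above 0 were made for 10 of 15 erythroid markers, 3 of 7 neutrophil markers and 1 of 8 ciliated and olfactory markers (8 without C57BL/6 mutant replicate 4). For the 6 skeletal muscle markers, whose highest sum was in BALB/c mutant replicate 16, 4 calls were made, against 6 with DESeq2 and 0 with limma-voom.

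**Figure D3:**
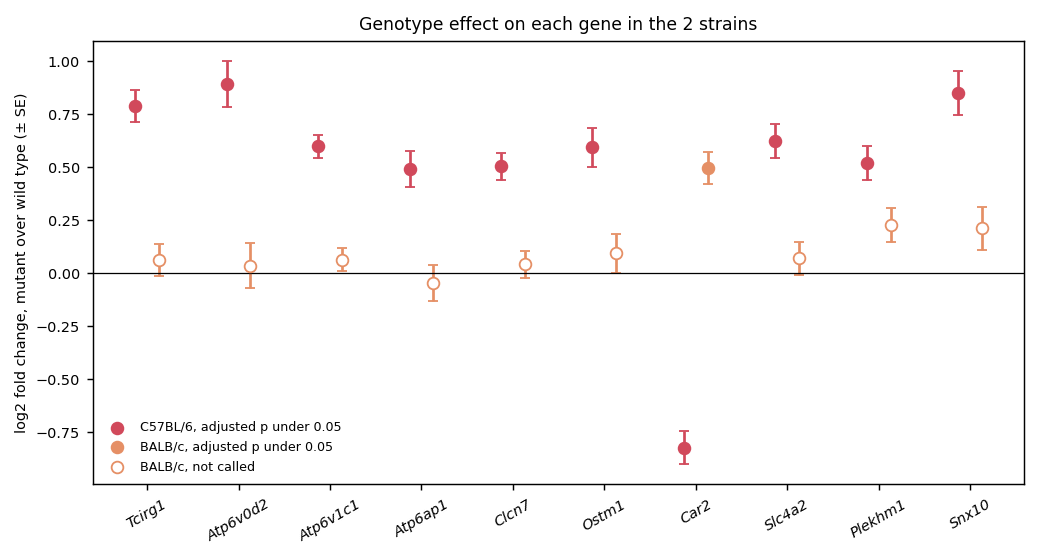
Log2 fold change, mutant over wild type, of each of the 10 genes in C57BL/6 (red) and BALB/c (orange), with its standard error; filled points have an adjusted p under 0.05. In C57BL/6 9 genes lie between 0.49 and 0.89 and Car2 at -0.82, and in BALB/c 9 genes lie between -0.04 and 0.23 and Car2 at 0.50.

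Between strains, the wild type levels of 6 genes were higher in BALB/c and 0 were lower (6 and 0 also at an unadjusted p under 0.05 and with DESeq2), beside 22.8% of all genes called higher and 25.6% called lower. The log2 difference was largest for Atp6v1c1 (0.48, SE 0.0538), whose BALB/c wild type level lay near that of C57BL/6 mutants. It was 0.38 (SE 0.075) for Tcirg1, 0.38 (SE 0.108) for Atp6v0d2, 0.37 (SE 0.0936) for Ostm1, 0.34 (SE 0.0765) for Car2 and 0.31 (SE 0.0853) for Atp6ap1. Atp6v0d2 was not called without C57BL/6 wild type replicate 1 (adjusted p 0.0533, edgeR) or without BALB/c wild type replicate 14 (0.0610), nor Car2 with total-count scaling (log2 0.22, adjusted p 0.125). Clcn7, Plekhm1, Snx10 and Slc4a2 were not called, with log2 differences of 0.000545 to 0.15. Among mutants, Car2 was 3.16-fold higher in BALB/c (log2 1.66, SE 0.0783, edgeR adjusted p 6e-08), and 5 genes were lower, beside 18% of all genes called higher and 18.9% called lower. Those 5 were Snx10 (-0.50, SE 0.101), Atp6v0d2 (-0.48, SE 0.108), Clcn7 (-0.46, SE 0.0641), Slc4a2 (-0.40, SE 0.0787) and Tcirg1 (-0.35, SE 0.0748). Ostm1 (-0.13) and Atp6v1c1 (-0.05) were not called, and of these Ostm1 overlapped between the strains while Atp6v1c1 did not (69 to 71.5 CPM in BALB/c, 72.4 to 73.7 CPM in C57BL/6). Plekhm1 (-0.20, adjusted p 0.0703) and Atp6ap1 (-0.23, adjusted p 0.0552) missed the threshold in edgeR and passed it with DESeq2 (0.0481 and 0.0192). Cell type markers moved beside these genes. In mutants 14 of 15 erythroid markers were higher in BALB/c (median 2.97), as were 7 of 7 neutrophil markers (2.34), while 9 of 11 osteoclast markers (-0.55) and 5 of 9 osteoblast markers (-0.52) were lower, with 2 osteoblast markers higher. Of 10 macrophage markers 4 were lower and 1 higher (2 and 2 with total counts). Of 8 ciliated and olfactory markers 3 were lower and 1 higher, with 0 lower without C57BL/6 mutant replicate 4 or with limma-voom. All 6 skeletal muscle markers were higher (median 5.72), against 3 without C57BL/6 mutant replicate 4 and 0 with limma-voom. They summed to 398.1, 24.84 and 3.35 CPM in BALB/c mutant replicates 16 to 18 and to 1.41 to 4.80 CPM in C57BL/6 mutants. In wild type 9 of 15 erythroid markers were higher (median 0.542) and 8 of 8 ciliated and olfactory markers lower (-3.45), and of 11 osteoclast markers 3 were higher and 1 lower. Of 7 neutrophil markers 4 were higher in wild type. With total-count scaling 5 erythroid markers were higher in wild type, and 3 osteoclast markers were higher and 3 lower. Their part in the strain differences was not tested. These strain comparisons share their samples with the genotype comparisons.

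Levels were compared between genes per length, as CPM per kb of the gene length in the authors' table. Atp6ap1 was the highest of the 10 in every group, from 80.8 ± 6.56 CPM per kb (SD, n = 3) in C57BL/6 wild type to 113.6 ± 10.7 in C57BL/6 mutants. Tcirg1 came second in 3 groups, and Plekhm1 and Ostm1 held the last places in all 4, between 8.79 and 14.3 CPM per kb. Car2 changed its place most. It ranked 3 of 10 in both wild type groups, with 42.6 ± 5.51 CPM per kb in C57BL/6, where its range overlapped that of Tcirg1, and 53.9 ± 2.14 in BALB/c. It ranked 8 in C57BL/6 mutants at 24.1 ± 0.732 CPM per kb and 2 in BALB/c mutants at 76.0 ± 0.613, above Tcirg1 at 69.1 ± 3.92 with no overlap.

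Proportions between related genes, chosen after the values were seen and described without a test, show where members of a pair moved apart. Tcirg1 made up 62.3% ± 1.64 (SD, n = 3) of the per-length level of the 4 a subunit genes in C57BL/6 wild type and 74.4% ± 1.39 in C57BL/6 mutants. In BALB/c its share was 72.2% ± 0.808 in wild type and 71.5% ± 0.862 in mutants, so the C57BL/6 wild type samples were the low group. Atp6v0d2 made up 44.8% ± 1.93 of the 2 d subunit genes in C57BL/6 wild type and 55.5% ± 1.41 in mutants, while both BALB/c groups overlapped C57BL/6 wild type (46.1% ± 2.11 and 47.4% ± 2.71). The partner Atp6v0d1, the d subunit of most tissues, rose by only 0.27 (SE 0.0512) on the log2 scale in C57BL/6 mutants. Atp6v1c1 made up 81.8% ± 6.08 of the 2 C subunit genes in C57BL/6 wild type and 97.5% ± 3.75 in C57BL/6 mutants. In BALB/c its share was 99.9% ± 0.0577 in wild type and 99.5% ± 0.2 in mutants. Clcn7 stood to Ostm1 at a ratio of 2.19 ± 0.101 and 2.05 ± 0.06 in C57BL/6 wild type and mutants, and of 1.69 ± 0.0529 and 1.64 ± 0.163 in BALB/c, where it was lower in both genotypes. Car2 stood to Tcirg1 at 0.845 ± 0.17 in C57BL/6 wild type, 0.274 ± 0.0133 in C57BL/6 mutants, 0.817 ± 0.0771 in BALB/c wild type and 1.10 ± 0.07 in BALB/c mutants. Set against the osteoclast protease Ctsk, Tcirg1 had a per-length ratio of 0.0553 ± 0.00326 in C57BL/6 wild type and 0.0483 ± 0.000361 in C57BL/6 mutants. In BALB/c it was 0.0484 ± 0.00135 and 0.05 ± 0.00185, so C57BL/6 wild type lay above the other 3 groups. The ratio of Atp6v0d2 to Ctsk overlapped between the C57BL/6 genotypes, with 0.0324 to 0.035 in C57BL/6 wild type, 0.0295 to 0.0336 in C57BL/6 mutants, 0.0288 to 0.0304 in BALB/c wild type and 0.0294 to 0.0311 in BALB/c mutants.

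**Figure D4:**
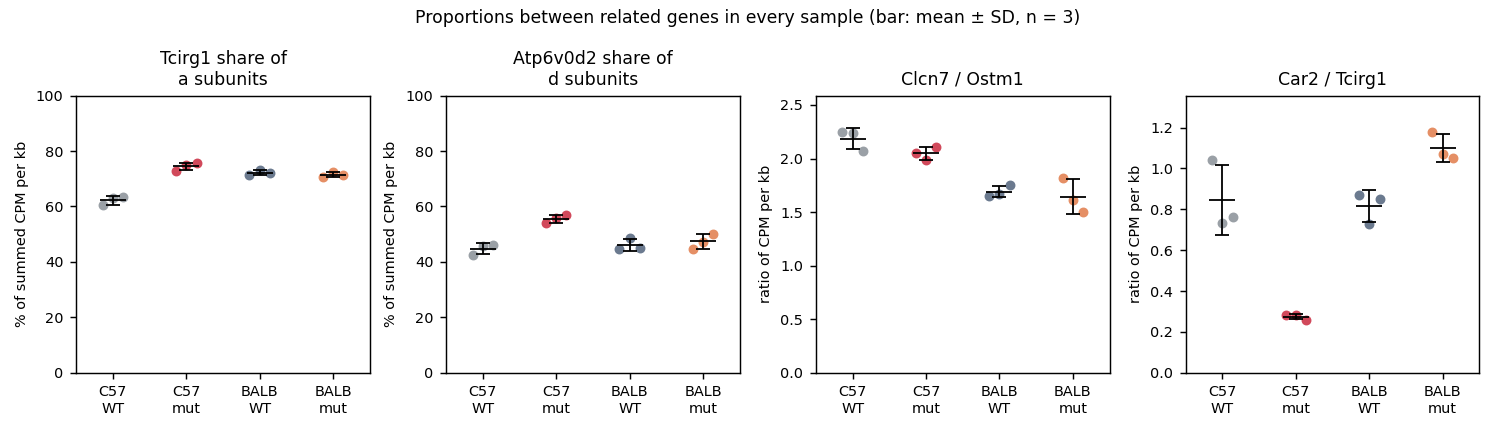
Per-length proportions in every sample (points; bar and whiskers: mean ± SD, n = 3): the share of Tcirg1 among 4 a subunit genes, the share of Atp6v0d2 among 2 d subunit genes, and the ratios of Clcn7 to Ostm1 and of Car2 to Tcirg1. The C57BL/6 mutants have the highest Atp6v0d2 share, 54% to 56.8%, and the lowest Car2 to Tcirg1 ratio, 0.259 to 0.282.

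Across the 12 samples the 9 genes other than Car2 varied together, with Pearson correlations of log2 CPM from 0.505 to 0.977 over their 36 pairs. After each group's mean was subtracted, 35 of the 36 were still positive. Car2 correlated with each of the 9 at -0.0284 (Atp6v1c1) to -0.802 (Clcn7). These correlations describe 12 samples that share 4 groups and library scaling. The genes most like each of the 10 were taken among 12774 tested genes with a mean of at least 1 CPM. For Tcirg1 the closest was Ctsk (r = 0.989 over 12 samples, 0.936 with group means removed), and for Snx10 the osteoclast integrin Itgb3 (0.989 and 0.929). Clcn7 was closest to the pump subunit Atp6v1a (0.98 and 0.931), Atp6v0d2 to the Wnt receptor Fzd5 (0.981 and 0.887) and Atp6ap1 also to Fzd5 (0.966 and 0.941). Ostm1 had Skap2 first (0.953 and 0.738) and Ctsk second (0.95 and 0.798). Plekhm1 was closest to the receptor kinase Mst1r (0.955 and 0.87), Slc4a2 to Fam102a (0.977 and 0.869) and Atp6v1c1 to the GTPase Rac2 (0.973, but 0.559 with group means removed). Car2 was closest to Fcho1 (0.993 and 0.83) and Hmgb3 (0.993 and 0.911).

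**Figure D5:**
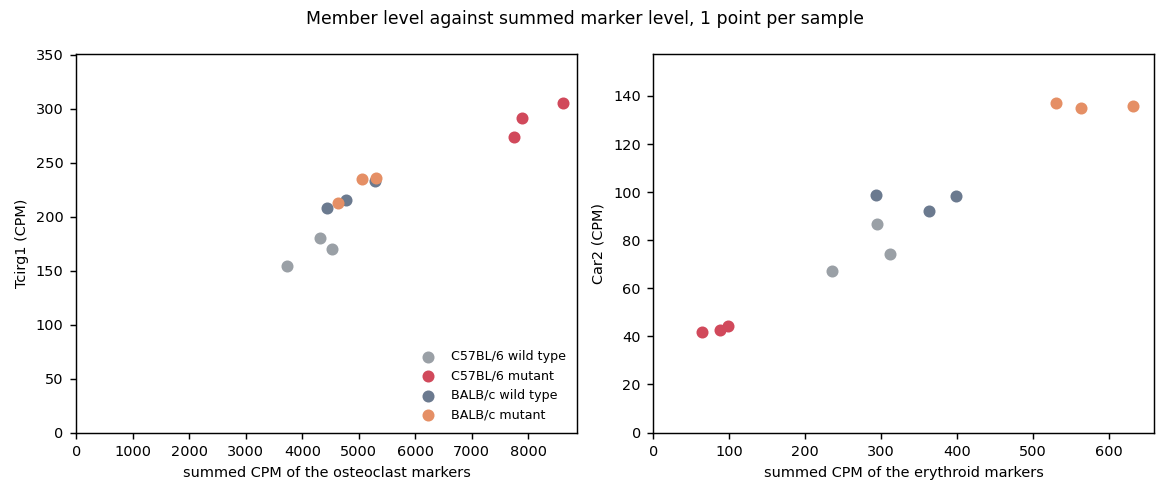
Level of Tcirg1 against the summed level of 11 osteoclast markers (left) and of Car2 against the summed level of 15 erythroid markers (right), both in CPM on linear axes from 0, with 1 point per sample. C57BL/6 mutants lie highest on both axes at left (7738 to 8620 CPM of osteoclast markers) and lowest on both at right (63.62 to 97.63 CPM of erythroid markers), and BALB/c mutants lie highest at right.

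In the authors' deposited table of comparisons, made with DESeq2, all 10 genes had a q-value under 0.05 for C57BL/6 mutants against wild type, with log2 fold changes of 0.75 for Tcirg1, 0.82 for Atp6v0d2 and -0.76 for Car2 (q-value 1.98e-05). For BALB/c the authors' deposited table gave Car2 a log2 fold change of 0.47 with a q-value of 0.0976, which is above that threshold, and the lowest q-value of the other 9 was 0.536, for Plekhm1. Of the strain differences called here, the authors' deposited table put some above 0.05: in wild type Car2 (q-value 0.0549) and Atp6v0d2 (0.0754), and in mutants Tcirg1 (0.0697) and Snx10 (0.0598).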

How the data were processed

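RNA from 12 mouse frontal bone samples, 3 in each of 4 groups taken from the labels, was sequenced by the authors as mRNA libraries. A count table deposited by the authors gives raw counts, RPKM and a length per gene. A second deposited table gives log2 fold changes with p-values and q-values for group comparisons. The RPKM values deposited were used only to check that they equal count over length and library total. The submitters' processing notes name bcl2fastq, TopHat2 2.0.6, HTSeq, DESeq2 and the build mm10. Strand setting and annotation are not given in the sources used here. All deposited counts were even (0 odd values), and whether both reads of a pair were counted is not given. The value columns that belong to no sample numbered 0.

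Counts were analysed with edgeR 4.0.16 in R 4.3.3: filterByExpr (minimum count 10, minimum total 15), TMM scaling, and 1 quasi-likelihood model of 4 group means over all 12 samples. P-values were Benjamini-Hochberg adjusted over the 16190 genes left. Standard errors derive from the quasi-likelihood statistic and 95% intervals use its residual degrees of freedom, and log2 CPM used a prior count of 2. The method was tested on simulated data. Alternatives were DESeq2 1.42.0, RLE size factors, total counts, no filter, counts divided by 2, only the groups compared, each library left out and, chosen after seeing the data, limma-voom (limma 3.58.1). All 10 genes are named; genes of 3 related lists could be named only where called in C57BL/6 or in the interaction, and the 3 genes most correlated with each of the 10 were ranked, of which the first is given for each, with 1 more for Ostm1 and Car2. Cell type markers came from 7 lists. In C57BL/6 the muscle list gave 0 of 6 skeletal muscle markers called by edgeR (2 at an unadjusted p under 0.05, 1 with DESeq2). The 10 genes and the lists were chosen with earlier results of these data known. Promoter sequences are RefSeq's for GRCm38.p6, and coordinates are those of the authors' table, counted from 1.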

Additional observations from a re-analysis of the deposited data

Results flagged for a closer look

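The genotype effect differed between C57BL/6 and BALB/c, by the interaction test over all genes, for 9 of the 10 acid secretion genes. The interaction is the log2 effect in BALB/c minus that in C57BL/6. It was 1.32 for Car2 (edgeR adjusted p 1.09e-04), which fell in C57BL/6 mutants and rose in BALB/c mutants. It was below 0 for 8 genes that rose in C57BL/6 mutants and were not called in BALB/c. The values were -0.86 for Atp6v0d2 (edgeR adjusted p 0.00806), -0.73 for Tcirg1 (0.00321), -0.64 for Snx10 (0.0214), -0.55 for Slc4a2 (0.0136), -0.54 for Atp6ap1 (0.0213), -0.53 for Atp6v1c1 (0.00273), -0.50 for Ostm1 (0.0365) and -0.46 for Clcn7 (0.0124). Of the markers, 8 of 11 osteoclast markers also had an interaction called below 0 and 10 of 15 erythroid markers one above 0, and their part in these differences was not tested.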

How the results depend on the processing

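The count of genes called was 10 in C57BL/6 in all 13 alternatives. In BALB/c it fell from 1 to 0 with total-count scaling and ranged from 0 to 1 over the fits without 1 library. For the interaction it fell from 9 to 5 with total-count scaling and ranged from 6 to 9 over the fits without 1 library. Ostm1 lost its interaction call in 9 of 18 alternatives, Atp6ap1 in 5 and Snx10 in 4. The signs that turned were all of uncalled values near 0. The strain difference of Clcn7 in wild type, 0.000545, became -0.0111 with DESeq2, -0.0115 with RLE factors, -0.111 with total counts, -0.00712 with halved counts and -0.00201 with limma-voom, and ran from -0.0758 to 0.0458 without 1 library. That of Plekhm1 became -0.0172 with total counts and ran from -0.00887 to 0.154 without 1 library, and that of Snx10 ran from -0.000395 to 0.205. In mutants the strain difference of Atp6v1c1 became 0.064 with total counts. In BALB/c the genotype effect without 1 library ran from -0.0411 to 0.134 for Atp6v0d2 and from -0.10 to 0.015 for Atp6ap1. The cause of these shifts was not tested.

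Over all genes, 22 were called in BALB/c by edgeR and 323 by DESeq2, and in C57BL/6 3867 with all 12 samples and 1458 with only the 6 C57BL/6 samples. Lists of other genes were recounted with DESeq2, limma-voom, total counts and without C57BL/6 mutant replicate 4, chosen after seeing the data. No paired analysis was possible because the groups share no replicate numbers.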
